A study of Mus musculus with 66 samples.

Results

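RNA sequencing compared E14 cells, a line of mouse embryonic stem cells, that carry the Praf2 deletion numbered GDel1 with wildtype E14 cells. The comparison takes every GDel1 library (2) and every wildtype library (3), which are 5 of the 66 samples of the series, and all 55487 genes of their tables. The genotype label names a deletion of a G4 at Praf2, and all 5 samples are labelled untreated. Both groups grew in serum with LIF, the cytokine that holds stem cells undifferentiated, and with inhibitors of the kinases GSK and MEK1/2. A second deletion with the same genotype label, GDel2 (2 libraries), entered the fit to estimate the spread and is set beside GDel1 at the end. The labels give neither the bases removed, nor whether GDel1 is 1 clone, nor whether replicates are separate cultures, so p-values measure the spread between these libraries, which may be technical.

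A G-quadruplex, or G4, forms where runs of guanines along a strand of DNA or RNA stack into a folded structure. Such runs are common at active promoters, where the folded strand can sit opposite an R-loop, a hybrid of nascent RNA with its DNA template. Praf2 encodes a small prenylated Rab acceptor protein that spans the membranes of the endoplasmic reticulum and Golgi and takes part in the traffic of other membrane proteins.

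The 250 bases before the RefSeq start of Praf2, on the plus strand at chrX:7728321-7728570 of GRCm38.p6, are shown because the labels place the deletion at this gene. Capitals mark the 10 runs of 3 or more G or C.
Praf2: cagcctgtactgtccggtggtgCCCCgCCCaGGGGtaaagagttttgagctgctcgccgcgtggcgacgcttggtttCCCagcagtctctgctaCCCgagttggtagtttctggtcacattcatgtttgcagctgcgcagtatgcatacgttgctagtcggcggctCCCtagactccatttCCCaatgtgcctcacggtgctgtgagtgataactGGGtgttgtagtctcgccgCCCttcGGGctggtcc
This window holds no match to the G4 motif searched, which was 4 runs of 3 or more G with 1 to 7 bases between them, on either strand. The window before Myh9, the gene with the lowest p-value in GDel1, does hold matches, in separate stretches of capitals. This window lies on the minus strand at chr15:77842176-77842425.
Myh9: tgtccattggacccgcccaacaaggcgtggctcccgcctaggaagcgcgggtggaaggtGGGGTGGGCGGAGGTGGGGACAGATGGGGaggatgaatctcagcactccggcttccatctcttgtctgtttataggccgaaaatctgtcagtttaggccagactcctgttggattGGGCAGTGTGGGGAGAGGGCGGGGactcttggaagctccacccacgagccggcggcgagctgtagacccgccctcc
The windows of Xlr3a (minus strand, chrX:73097096-73097345) and Xlr3b (plus strand, chrX:73191929-73192178) are shown because these X-linked copies fell together. Their longest shared run, 58 bases, is in capitals.
Xlr3a: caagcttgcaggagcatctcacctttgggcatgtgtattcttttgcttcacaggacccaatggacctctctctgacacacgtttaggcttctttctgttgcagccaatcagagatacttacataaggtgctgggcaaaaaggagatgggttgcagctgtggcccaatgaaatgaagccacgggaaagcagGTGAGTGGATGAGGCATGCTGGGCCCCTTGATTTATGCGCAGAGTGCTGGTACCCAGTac
Xlr3b: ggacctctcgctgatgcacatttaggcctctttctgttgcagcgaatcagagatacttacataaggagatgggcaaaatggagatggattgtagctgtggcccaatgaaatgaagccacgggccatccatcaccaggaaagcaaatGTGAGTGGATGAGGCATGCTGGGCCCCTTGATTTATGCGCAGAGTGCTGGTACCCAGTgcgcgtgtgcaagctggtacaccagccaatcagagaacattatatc
Those of Xlr4a (minus strand, chrX:73082508-73082757) and Xlr4b (plus strand, chrX:73214083-73214332) share a run of 83 bases, again in capitals.
Xlr4a: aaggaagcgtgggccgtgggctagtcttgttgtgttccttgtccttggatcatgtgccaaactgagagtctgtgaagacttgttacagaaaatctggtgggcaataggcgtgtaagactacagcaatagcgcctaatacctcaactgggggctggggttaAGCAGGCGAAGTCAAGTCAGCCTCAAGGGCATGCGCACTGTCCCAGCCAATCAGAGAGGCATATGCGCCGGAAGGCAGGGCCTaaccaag
Xlr4b: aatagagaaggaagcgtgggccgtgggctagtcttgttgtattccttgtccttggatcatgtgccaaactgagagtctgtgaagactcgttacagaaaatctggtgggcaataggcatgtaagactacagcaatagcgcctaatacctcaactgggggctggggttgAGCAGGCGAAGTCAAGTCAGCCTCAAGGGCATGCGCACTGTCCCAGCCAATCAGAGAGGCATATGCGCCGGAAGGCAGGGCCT
A match describes the letters of a window and is not a measured structure. No match says only that these letters are not in it.

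Few genes passed the test. Of 15421 genes with enough counts, 58 had an adjusted p under 0.05 in edgeR, which is 0.376% of those tested. The 25 that rose are 0.162% and the 33 that fell are 0.214%, so 43.1% of the calls were higher. At least 2-fold changes made up 19 of the falls and 9 of the rises. Many genes sat just outside the threshold, with 465 under an adjusted p of 0.06 and 1628 under 0.10. Scaling by library size alone moved the median of all genes to -0.07 and left 14 calls, 7.14% of them higher. With limma on log2(TPM + 1), which changes the test and the transform as well as the scaling and is written as "under TPM" from here, the median was -0.30 and 2337 genes were called, 1.28% of them higher. Without wildtype replicate 1, 2 or 3 there were 4, 4 and 9 calls. Leaving out GDel2 replicate 1 or 2 gave 14 and 56. A fit without a GDel1 replicate keeps 1 GDel1 library, and its calls are not counted here. DESeq2 called 993 genes, and edgeR on the 5 libraries alone called 12. In 6715 genes, 43.5% of those tested, both GDel1 libraries lay on the same side of all 3 wildtype libraries.

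The GDel1 libraries differed from each other more than the wildtype libraries did. Depth ran from 13360009 to 18762704 expected counts over the 5 libraries. The mitochondrial genome's own transcripts made up 9.91% of GDel1 replicate 1 (9.89 to 9.92, 95% Wilson interval) but 4.83% of replicate 2 (4.82 to 4.84), either side of the 6.30% to 6.89% in wildtype. The absolute difference between the replicates had a median of 0.241 on the log2 scale over all genes, and of 0.155 over the 58 genes, which the test selects for agreement. Embryonic stem cell markers were present throughout, all 10 summing to 4056 to 4162 CPM in wildtype and to 4230 and 4601 CPM in GDel1. Fibroblast feeder markers were close to absent: 4 of 8 were at 0 in all 5 libraries, and their sum was at most 2.36 CPM. In these bulk samples, fewer cells of a type and less RNA per cell cannot be told apart.

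**Figure D1:**
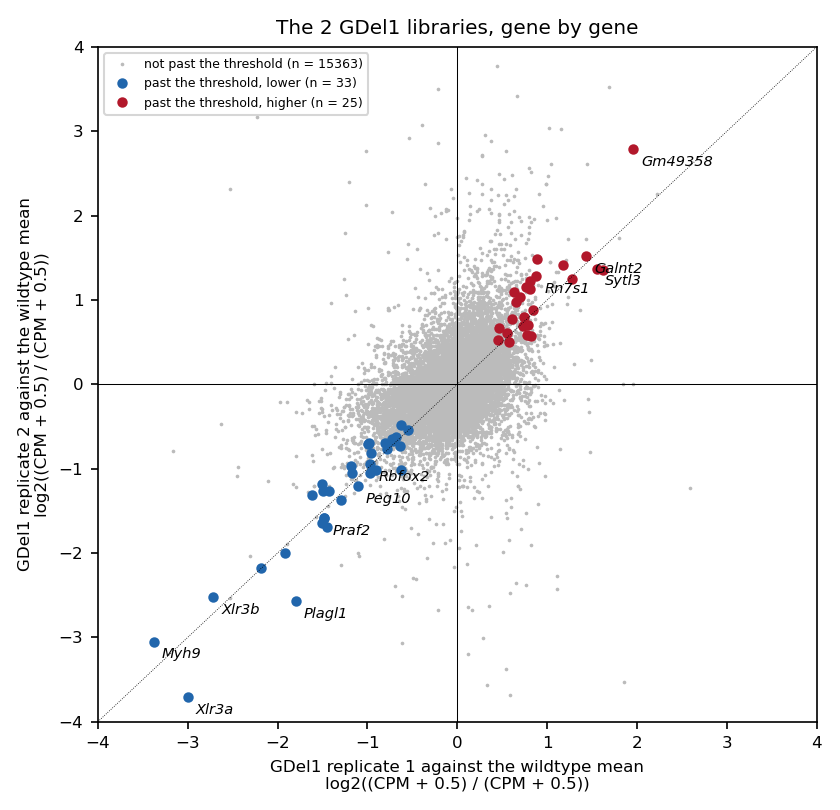
Each point is a gene, placed by its log2 ratio to the wildtype mean in GDel1 replicate 1 (horizontal axis) and replicate 2 (vertical axis), with 0.5 CPM added to each value. Of the genes past the threshold, 25 are higher and 33 lower in both replicates, and 7 genes fall outside the axes.

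Praf2 itself fell to about the same level in both GDel1 libraries. It stood at 27.5, 28.8 and 30.6 CPM in wildtype and 10.1 and 9.26 CPM in GDel1, where CPM is the expected count scaled to library size, corrected by TMM. Both GDel1 libraries lay far below the lowest wildtype library. The log2 fold change was -1.59 ± 0.11 SE, adjusted p = 0.00206. The gene was called in each fit that left out 1 wildtype or GDel2 library. Per transcript length, Praf2 had 16.9, 14.8 and 15.9 TPM in wildtype and 3.88 and 3.85 TPM in GDel1.

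No relative of Praf2 passed. Values in brackets are log2 fold changes of GDel1 against wildtype with adjusted p-values of the edgeR fit. Among 9 tested genes of the PRA1 and Yip families, membrane proteins of the early secretory pathway that bind Rab proteins, Praf2 was the only call, and the median was 0.11 (all genes tested 0.00), or -0.45 under TPM. Rabac1, the founding prenylated Rab acceptor, was at 25.2, 25.7 and 24.6 CPM in wildtype and 29.1 and 25.8 CPM in GDel1 (0.12, adjusted p = 0.46). Arl6ip5, a close relative of Praf2, was at 11.3, 12.4 and 13.9 CPM in wildtype and 13 and 16.8 CPM in GDel1 (0.25, adjusted p = 0.321).

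Around Praf2, none of 33 other genes tested within 500 kb passed. Their log2 fold changes ran from -0.67 to 0.41 with a median of -0.11. Both GDel1 libraries were below all wildtype libraries for 12 of them, against 22.6% of all genes tested, and above them for 2. Ccdc120, a centrosomal coiled-coil gene 651 bases from Praf2, had 20.5, 20.2 and 19 CPM in wildtype and 13.2 and 12.4 CPM in GDel1 and came nearest to a call (-0.64 ± 0.12 SE, adjusted p = 0.0528). Tfe3, a transcription factor of lysosome genes 31467 bases away, had 110, 97.5 and 91.7 CPM in wildtype and 72.4 and 75 CPM in GDel1 (-0.44 ± 0.10 SE, adjusted p = 0.0607). In both genes the groups did not overlap. Wdr45, an autophagy gene 370 bases away on the other side, had 25.8, 26.6 and 22.9 CPM in wildtype and 27.5 and 21.7 CPM in GDel1 (-0.03 ± 0.13 SE, adjusted p = 0.903), with overlap. Of the other genes within 100 kb, the groups overlapped for the spliceosomal gene Gpkow (0.04, adjusted p = 0.841), the membrane protein gene Plp2 (-0.28, adjusted p = 0.439), the synaptic vesicle gene Syp (-0.38, adjusted p = 0.681) and the Rab-binding gene Gripap1 (0.28, adjusted p = 0.414). They did not for the planar polarity gene Prickle3 (-0.44, adjusted p = 0.146) and the potassium channel gene Kcnd1 (-0.43, adjusted p = 0.127).

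**Figure D2:**
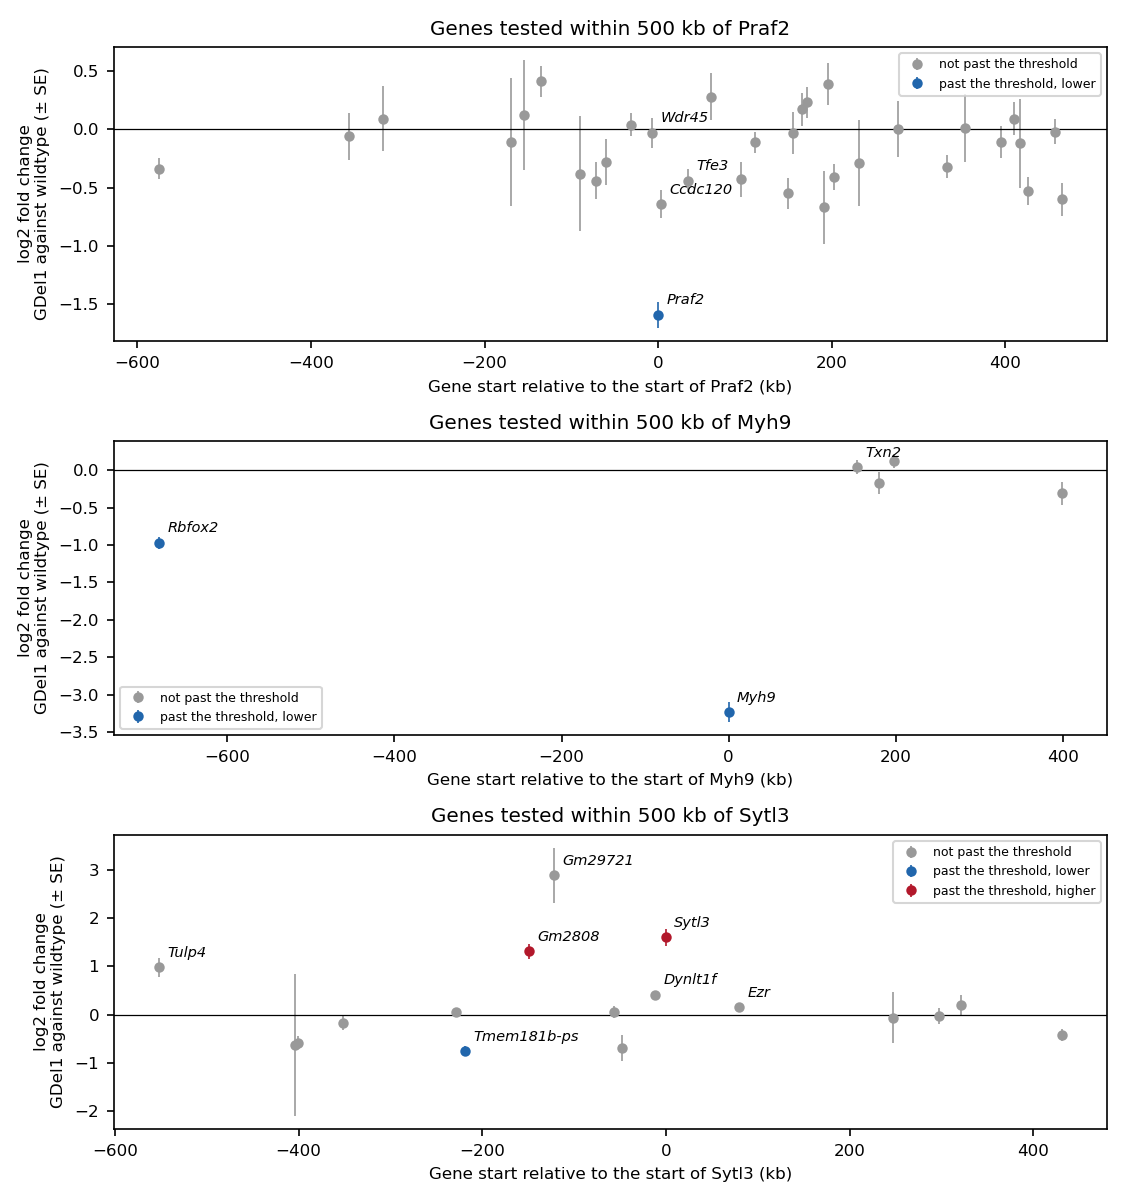
Log2 fold change of GDel1 against wildtype, with its SE, for every gene tested within 500 kb (gap between gene bodies) of Praf2, Myh9 and Sytl3, placed by the distance between gene starts, which can exceed 500 kb. No other gene passed the threshold around Praf2, while Rbfox2 passed beside Myh9, and Gm2808 (higher) and Tmem181b-ps (lower) passed beside Sytl3.

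Myh9 had the lowest p-value of all genes. It encodes the heavy chain of non-muscle myosin IIA, the motor that contracts actin filaments in the cell cortex. Its level was 173, 177 and 177 CPM in wildtype and 16.4 and 20.7 CPM in GDel1. Both groups were tight and far apart. The log2 fold change was -3.23 ± 0.13 SE, adjusted p = 2.42e-05, a 9.4-fold fall. It was called in each fit that left out 1 wildtype or GDel2 library. Per transcript length, Myh9 had 29.3, 25.5 and 26.6 TPM in wildtype and 1.69 and 2.28 TPM in GDel1. The estimated transcript length was 4259 to 4437 bases in wildtype and 4598 to 4619 bases in GDel1.

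Rbfox2, 452151 bases from Myh9 on chromosome 15, also fell. It encodes an RNA-binding protein that sets tissue-specific splicing. It was at 161, 164 and 160 CPM in wildtype and 82.3 and 83.4 CPM in GDel1, with no overlap (-0.97 ± 0.08 SE, adjusted p = 0.00431). Without wildtype replicate 1 or 2 the adjusted p was 0.0562 and 0.0703. The other 4 genes tested within 500 kb of Myh9 did not pass, among them the mitochondrial thioredoxin gene Txn2, with 70.7, 70.3 and 65.3 CPM in wildtype and 74.3 and 67.2 CPM in GDel1 (0.04, adjusted p = 0.813). Of 15 tested regulators of tissue splicing, Rbfox2 was the only call, with a list median of -0.14.

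Other actomyosin genes gave no call. Of 37 tested, Myh9 was the only one past the threshold, and the median was -0.07 (-0.56 under TPM, where all genes had -0.30). The other non-muscle heavy chains overlapped wildtype: Myh10 was at 88.5, 98.9 and 88.4 CPM in wildtype and 81.2 and 93.3 CPM in GDel1 (-0.07 ± 0.10 SE, adjusted p = 0.68), and Myh14 at 5.52, 5.26 and 6.2 CPM in wildtype and 3.62 and 7.91 CPM in GDel1 (0.06 ± 0.33 SE, adjusted p = 0.942). Non-muscle actin, Actb, was at -0.24, adjusted p = 0.199.

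Matrix genes gave no call, and the GDel1 libraries differed from each other in them. Of 12 tested basement membrane and matrix genes, 11 had both GDel1 libraries below all wildtype libraries, as did 22.6% of all genes tested. The list's median log2 ratio was -0.69 in replicate 1 and -0.17 in replicate 2. Fibronectin, Fn1, had 2022, 1999 and 1953 CPM in wildtype and 820 and 1593 CPM in GDel1 (-0.72 ± 0.35 SE, adjusted p = 0.266), and perlecan, Hspg2, had 483, 467 and 470 CPM in wildtype and 127 and 410 CPM in GDel1 (-0.81 ± 0.63 SE, adjusted p = 0.482). Replicate 1 was the lower library in both. The collagen IV gene Col4a1 was low in both GDel1 libraries, with 4.34, 3.84 and 4.31 CPM in wildtype and 1.53 and 2.08 CPM in GDel1 (-1.17 ± 0.21 SE, adjusted p = 0.0528). Replicate 1 is also the library with the mitochondrial share of 9.91%, and the part of that difference in these values was not tested. Of 22 integrin and focal adhesion genes none passed (median -0.17).

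Single genes of the cell surface did pass. Mmp2, a secreted protease of collagen, fell from 1.91, 2.41 and 2.52 CPM to 0.402 and 0.625 CPM (-2.09 ± 0.30 SE, adjusted p = 0.0381). Cdh3, the cadherin of placenta and epithelia, fell from 7.88, 7.55 and 8.93 CPM to 3.3 and 3.9 CPM (-1.16 ± 0.18 SE, adjusted p = 0.0463). Parm1, a mucin-like membrane gene, fell from 6.84, 6.93 and 5.62 CPM to 3.06 and 2.86 CPM (-1.13 ± 0.18 SE, adjusted p = 0.0488). In these 3 genes every GDel1 library was below every wildtype library. Emp1, a membrane protein of the PMP22 family, rose from 11.1, 12.9 and 11.5 CPM to 21.7 and 22.2 CPM (0.89 ± 0.11 SE, adjusted p = 0.0249), but its log2 fold change was -0.16 under TPM. Its estimated transcript length was 2438 bases in GDel1 replicate 2 and 1153 to 1356 bases in the other 4 libraries. Without any 1 wildtype replicate these 4 calls were lost (adjusted p 0.126 to 0.22), as they were without GDel2 replicate 1 (0.0589 to 0.0639). Without GDel2 replicate 2 those of Mmp2, Cdh3 and Parm1 were lost (0.0529 to 0.0565).

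Of the X-linked Xlr3 and Xlr4 copies, Xlr3a, Xlr3b and Xlr4a fell in GDel1. These lymphocyte-regulated genes form a cluster of near-identical copies related to a protein of the meiotic chromosome axis, and some copies are imprinted in mouse brain. Xlr3a went from 6.84, 6.68 and 6.62 CPM to 0.402 and 0.052 CPM (-5.06 ± 0.42 SE, adjusted p = 0.00431). Xlr3b went from 3.97, 3.4 and 4.2 CPM to 0.161 and 0.26 CPM (-4.08 ± 0.36 SE, adjusted p = 0.00495). Neither gene overlapped between groups, and both were called in each fit that left out 1 wildtype or GDel2 library. Xlr4a had 89 counts over the wildtype libraries and 0 over the GDel1 libraries, which is at least 19.2-fold lower against a floor of 3 counts per group. Its adjusted p was 0.0249, and 0.0785 to 0.126 without a wildtype replicate and 0.0589 without GDel2 replicate 1.

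Xlr3c, Xlr4b and Xlr4c were not called. Xlr3c was at 0.368, 1.05 and 1.68 CPM in wildtype and 0.402 and 0.26 CPM in GDel1, with overlap (-1.72 ± 0.64 SE, adjusted p = 0.147). Xlr4b had 96 counts in wildtype and 2 in GDel1, a ratio of 31.1 (95% interval 8.38 to 261, counting error only; adjusted p = 0.0511). Xlr4c had 41 counts and 0, at least 8.86-fold lower (adjusted p = 0.0528). Over the 6 tested members 3 were called lower, as were 0.214% of all genes tested. The list's median was -4.93, or -4.18 with members at 0 set to their bound. Reads that match several copies are shared out by the counting, so values of single copies are uncertain. Summed, the 3 Xlr3 copies gave 11.2, 11.2 and 12.5 CPM in wildtype and 0.966 and 0.521 CPM in GDel1, and the 3 Xlr4 copies gave 3.97, 4.99 and 4.72 CPM against 0 and 0.104 CPM. Of the genes beside the cluster, the groups overlapped for the sterol synthesis gene Nsdhl (-0.19, adjusted p = 0.402) and the zinc finger gene Zfp275 (-0.06, adjusted p = 0.775). Pnma5, of a retrotransposon-derived family and 46572 bases from Xlr3a, had 2.36, 2.54 and 1.42 CPM in wildtype and 0.322 and 0.572 CPM in GDel1 (-2.13 ± 0.38 SE, adjusted p = 0.0528).

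**Figure D3:**
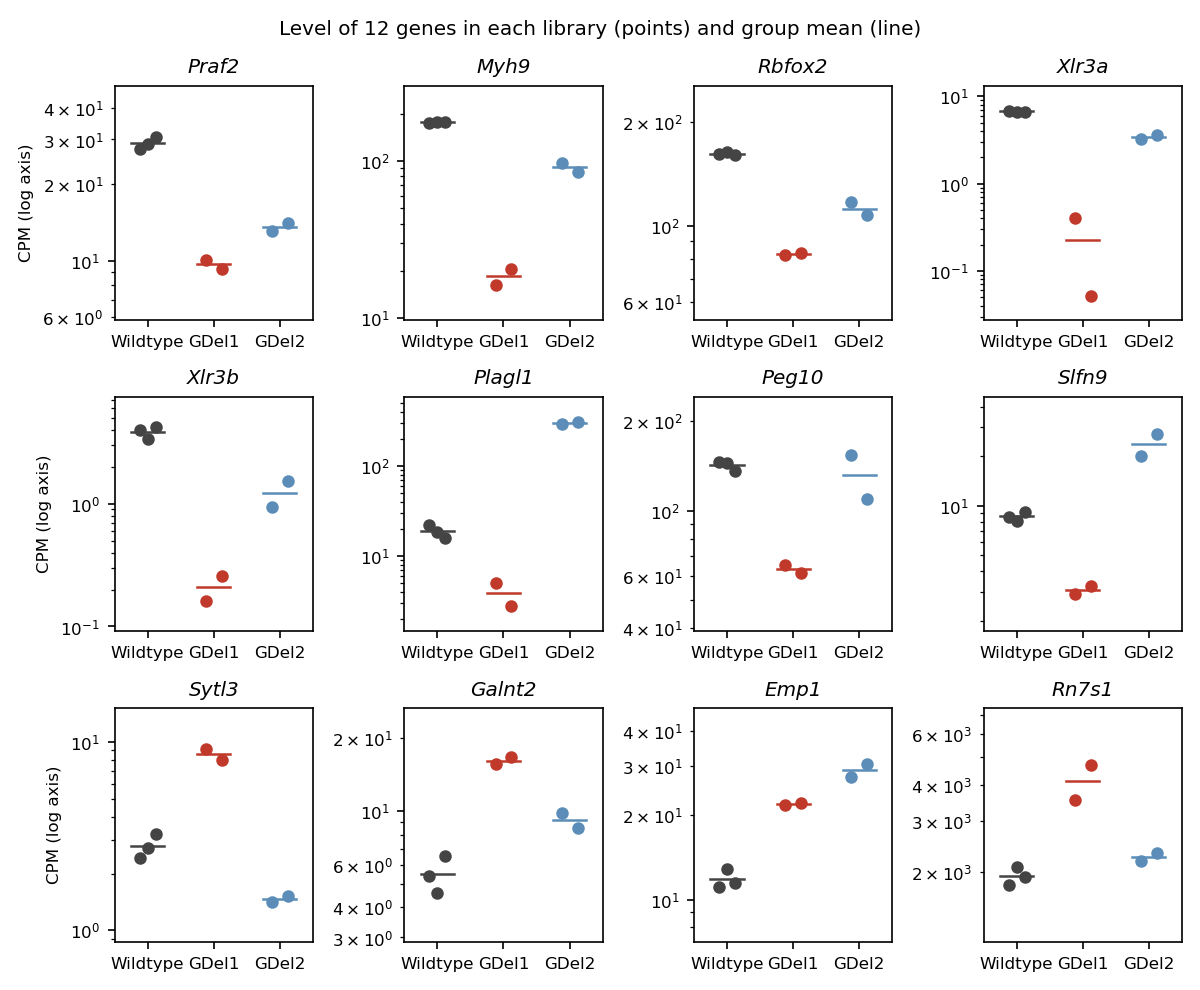
Level in CPM of 12 genes past the threshold in GDel1, on log axes that differ between panels, with a point per library and a line at each group mean. The 2 GDel1 points lie apart from the 3 wildtype points in each panel. Depending on the gene, the GDel2 points lie between them, around or beyond wildtype, or beyond GDel1 (Emp1).

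A stretch of chromosome 17 held calls in both directions. Sytl3, a synaptotagmin-like effector of Rab27 in secretion, rose from 2.43, 2.72 and 3.26 CPM to 9.18 and 8.01 CPM (1.60 ± 0.18 SE, adjusted p = 0.0159). Gm2808, 122119 bases from it, rose from 9.49, 7.3 and 8.24 CPM to 20.9 and 20.5 CPM (1.31 ± 0.15 SE, adjusted p = 0.0159). Tmem181b-ps, a transcribed pseudogene 58092 bases further, fell from 65.4, 66.2 and 70.3 CPM to 38.5 and 41.3 CPM (-0.75 ± 0.11 SE, adjusted p = 0.0365). The groups did not overlap in any of the 3. Next to Sytl3, the dynein light chain gene Dynlt1f was at 35.9, 34.1 and 35.2 CPM in wildtype and 43.4 and 49.8 CPM in GDel1 (0.41, adjusted p = 0.0607), and Ezr, which links actin to the membrane, was at 130, 130 and 125 CPM in wildtype and 148 and 137 CPM in GDel1 (0.15, adjusted p = 0.284). Tmem181 and Dynlt1 exist here in several similar copies, so the assignment of reads among them is uncertain. Of 11 tested genes of Rab27 effectors and exocytosis, Sytl3 was the only call (median 0.13, and -0.26 under TPM). Without any 1 wildtype replicate the 3 calls were lost (adjusted p 0.0629 to 0.192), and without GDel2 replicate 1 those of Sytl3 (0.051) and Tmem181b-ps (0.0578).

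Among 39 tested imprinted genes, which are expressed from 1 parental allele, Plagl1 and Peg10 fell and Ddc rose, and the list's median was -0.00. Plagl1, a zinc finger transcription factor that slows growth, was at 22.2, 18.6 and 16 CPM in wildtype and 5.07 and 2.76 CPM in GDel1 (-2.32 ± 0.24 SE, adjusted p = 0.0159). Peg10, a retrotransposon-derived gene needed for the placenta, was at 146, 145 and 136 CPM in wildtype and 65.6 and 61.3 CPM in GDel1 (-1.17 ± 0.14 SE, adjusted p = 0.0227). Every GDel1 library was below every wildtype library in both. Sgce, 102 bases from Peg10 and in the same imprinted domain, was at 1.69, 1.18 and 1.37 CPM in wildtype and 1.53 and 1.3 CPM in GDel1, with overlap (0.00 ± 0.34 SE, adjusted p = 0.999). Ddc, the decarboxylase that makes dopamine and serotonin, rose from 11.3, 11 and 12.4 CPM to 20.2 and 17.5 CPM (0.70 ± 0.11 SE, adjusted p = 0.0488). Its imprinted neighbour Grb10, which encodes an adaptor of the insulin receptor, was at 54.3, 59.7 and 58.5 CPM in wildtype and 72.1 and 74.6 CPM in GDel1 (0.35, adjusted p = 0.0673). Without wildtype replicate 1 or 2 the 3 calls were lost (adjusted p 0.0629 to 0.22), and without wildtype replicate 3 those of Peg10 (0.124) and Ddc (0.144). Without GDel2 replicate 1 those of Plagl1 (0.0589) and Ddc (0.0639) were lost, and without GDel2 replicate 2 that of Ddc (0.0565).

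On chromosome 11, Slfn9 and AI662270 fell. Slfn9 belongs to the Schlafen genes, which are linked to growth arrest and antiviral defence. It went from 8.54, 8.1 and 9.24 CPM to 2.9 and 3.28 CPM (-1.47 ± 0.19 SE, adjusted p = 0.0249). AI662270, a noncoding transcript 231746 bases away, had 83 counts in wildtype and 2 in GDel1, a ratio of 26.9 (95% interval 7.22 to 226, counting error only; adjusted p = 0.022). The groups did not overlap in either. Slfn8, 10295 bases from Slfn9, was at 1.1, 1.36 and 1.52 CPM in wildtype and 0.724 and 1.09 CPM in GDel1 (-0.52, adjusted p = 0.346). Both calls were lost without any 1 wildtype replicate (adjusted p 0.0954 to 0.137).

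Genes of glycosylation gave a rise and a fall. Galnt2, an enzyme that starts mucin-type O-glycans, rose from 5.37, 4.58 and 6.51 CPM to 15.6 and 16.7 CPM (1.55 ± 0.16 SE, adjusted p = 0.0129). The groups were far apart. It was the only call among 15 tested genes of these glycans, whose median was 0.07 (-0.17 under TPM and -0.00 by library size). Alg3, a mannosyltransferase that builds the N-glycan precursor, fell from 41.4, 40.5 and 38.4 CPM to 24.1 and 25 CPM (-0.71 ± 0.11 SE, adjusted p = 0.0488). Without wildtype replicate 1 or 2 the adjusted p of Galnt2 was 0.0954 to 0.0976, and without any 1 wildtype replicate that of Alg3 was 0.144 to 0.22. Without GDel2 replicate 1 that of Alg3 was 0.0589.

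Several genes known from neurons fell; they are grouped here after their values were seen and were not a list. Slc1a1, a glutamate transporter, went from 3.75, 3.09 and 3.2 CPM to 1.21 and 1.35 CPM (-1.37 ± 0.22 SE, adjusted p = 0.0488). Shisa7, an auxiliary protein of neurotransmitter receptors, went from 29.5, 27.8 and 27 CPM to 14.2 and 15.8 CPM (-0.90 ± 0.12 SE, adjusted p = 0.0249). Both were lower in each GDel1 library than in every wildtype library. Vamp2, of synaptic vesicle fusion, went from 22, 21.8 and 22.4 CPM to 10.9 and 13.3 CPM (-0.86, adjusted p = 0.0358), and Rgma, a repulsive guidance molecule of axons, from 14.8, 14.8 and 14.2 CPM to 7.16 and 8.85 CPM (-0.86, adjusted p = 0.0488). Olfm1, a secreted olfactomedin, fell (-1.71, adjusted p = 0.0488) and so did the tetraspanin gene Tspan7 (-2.32, adjusted p = 0.0463). Without any 1 wildtype replicate their adjusted p ran from 0.137 to 0.22, and without GDel2 replicate 1 0.0578 to 0.064. Without GDel2 replicate 2 the adjusted p of Slc1a1, Rgma and Olfm1 was 0.0565.

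Klhl13, Crtc2, Nfat5, Cbll1, Cdr2l and Hivep3 fell as well; they are set together after their values were seen and form no list. Klhl13, an adaptor of a Cul3 ubiquitin ligase on the X chromosome, went from 102, 102 and 99.7 CPM to 65.1 and 49.8 CPM (-0.82 ± 0.12 SE, adjusted p = 0.0405). Crtc2, a coactivator of CREB, went from 40.7, 36.9 and 35.9 CPM to 21.8 and 22 CPM (-0.79 ± 0.11 SE, adjusted p = 0.0365). Nfat5, the transcription factor of the response to salt stress, went from 233, 219 and 217 CPM to 144 and 160 CPM (-0.55 ± 0.09 SE, adjusted p = 0.0488). None of these overlapped between groups. Cbll1, a ubiquitin ligase tied to the m6A writer complex, fell (-0.69, adjusted p = 0.0488), as did Cdr2l (-0.70, adjusted p = 0.0417) and the zinc finger gene Hivep3 (-2.32, adjusted p = 0.0488). Without any 1 wildtype replicate the adjusted p of these 6 genes ran from 0.144 to 0.22, and without GDel2 replicate 1 0.0589 to 0.064. Without GDel2 replicate 2 the adjusted p of Klhl13, Nfat5 and Hivep3 was 0.0529 to 0.0565.

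Fabp3, Mageb16, Chchd1, Zfp59, Wdr92 and Rtraf rose, and they too form no list. Fabp3, a carrier of fatty acids, went from 83.6, 79.4 and 86.1 CPM to 147 and 123 CPM (0.70 ± 0.11 SE, adjusted p = 0.0463). Mageb16, an X-linked member of the MAGE family, went from 29.1, 30 and 34.5 CPM to 52.2 and 50.6 CPM (0.72 ± 0.10 SE, adjusted p = 0.0365). In both, the GDel1 libraries were above all wildtype libraries. Chchd1, of the mitochondrial ribosome, rose (0.79, adjusted p = 0.0341), as did the zinc finger gene Zfp59 (0.59, adjusted p = 0.0405), Wdr92 (0.55, adjusted p = 0.0488) and Rtraf, of the tRNA ligase complex (0.50, adjusted p = 0.0488). These 6 calls were lost without any 1 wildtype replicate (adjusted p 0.124 to 0.22) or without GDel2 replicate 1 (0.0589 to 0.0639). Those of Zfp59, Wdr92 and Rtraf were also lost without GDel2 replicate 2 (0.0529 to 0.0565). Under TPM, where all genes had a median of -0.30, the log2 fold changes of these 6 genes ran from 0.04 (Rtraf) to 0.32 (Chchd1).

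The list of small structural RNAs held 17 tested genes, among them the long nuclear RNAs Malat1 and Neat1. Of these 17, 3 rose, none fell and the other members did not pass, where 0.162% of all genes tested rose. A log2 fold change above 0 was seen in 16 of them and in 7756 of all 15421 genes tested, with a list median of 0.70 (0.39 under TPM). Rn7s1, the RNA of the signal recognition particle, which brings ribosomes to the endoplasmic reticulum, went from 1797, 2081 and 1929 CPM to 3551 and 4690 CPM (1.09 ± 0.13 SE, adjusted p = 0.0227). Rpph1, the RNA of RNase P, which trims tRNA precursors, went from 1417, 1367 and 1597 CPM to 2290 and 2877 CPM (0.82 ± 0.13 SE, adjusted p = 0.0488). The groups did not overlap in either. Rprl3, a relative of that RNA, went from 27.2, 32.5 and 31.3 CPM to 51.8 and 68.1 CPM (0.98, adjusted p = 0.0327). Outside the list, Scarna6, a guide RNA of Cajal bodies, rose (0.91, adjusted p = 0.0463). The long nuclear RNAs of the list, Malat1 (0.11, adjusted p = 0.505) and Neat1 (-0.25, adjusted p = 0.388), did not pass. The 4 calls were lost without any 1 wildtype replicate (adjusted p 0.134 to 0.22) or without GDel2 replicate 1 (0.0589 to 0.0639), and those of Rpph1 and Scarna6 also without GDel2 replicate 2 (0.0565).

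Short transcripts in general stood higher. Of the 25 genes that rose, 9 had a mean transcript length under 500 bases, as did 0 of the 33 that fell and 3.81% of all genes tested. The median length was 1254 bases among the rises, 2600 among the falls and 2193 over all genes tested. With the genes tested split by length into 5 groups of equal size, the median log2 fold change went from 0.16 in the group of shortest genes to -0.11 in that of the longest. Both GDel1 replicates showed it. The GDel2 libraries went from 0.04 and 0.06 in the shortest group to -0.06 and -0.05 in the longest. The wildtype libraries stayed between -0.02 and 0.02, but each is part of the mean it is set against. The 588 tested genes under 500 bases took 6.33% to 7.63% of counts in wildtype and 9.81% and 8.45% in GDel1. They took 58.7% to 66.4% of all TPM in wildtype and 70.0% and 73.9% in GDel1, and under TPM the 5 groups had medians of -0.24 to -0.33. RNA quality was not given, and its part in these values was not tested.

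**Figure D4:**
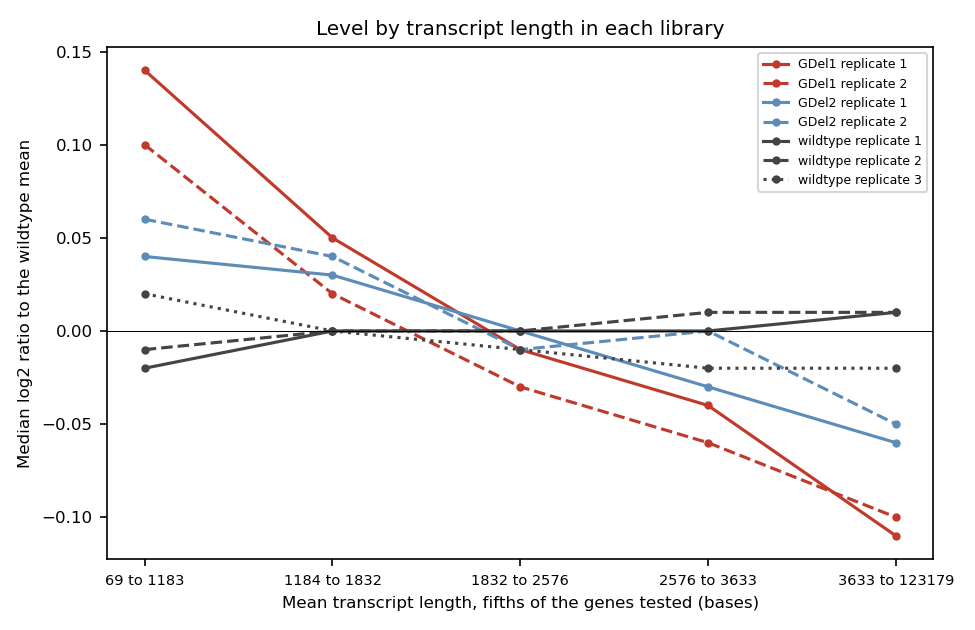
Median log2 ratio to the wildtype mean, with 0.5 CPM added, in 5 equal groups of the genes tested by mean transcript length, with a line for each library. The GDel1 lines go from 0.14 and 0.10 in the shortest group to -0.11 and -0.10 in the longest, the GDel2 lines from 0.04 and 0.06 to -0.06 and -0.05, and the wildtype lines stay between -0.02 and 0.02.

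Both large groups of short messages lay above 0 with no call. Of 89 cytosolic ribosomal protein genes, 62 had both GDel1 libraries above all wildtype libraries, against 20.9% of all genes tested, and the median was 0.42, but -0.05 under TPM. Of 66 replication-dependent histone genes, whose messages end in a stem-loop in place of a poly(A) tail, 45 did so, with a median of 0.61 (0.16 under TPM). Their median transcript lengths were 656 and 532 bases, within the range of the shortest group, whose median log2 fold change was 0.16. The part of length in these values was not tested.

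Factors that act on R-loops and G-quadruplexes gave no call. All 25 tested had a log2 fold change above 0, as did 7756 of all 15421 genes tested, with a list median of 0.17, but -0.24 under TPM, where all genes had -0.30. Both GDel1 libraries were above all wildtype libraries for 14 of them, and for 20.9% of all genes tested. Nucleolin, Ncl, which binds G4 folds, was at 981, 1007 and 952 CPM in wildtype and 1183 and 1346 CPM in GDel1 (0.37 ± 0.09 SE, adjusted p = 0.0702). The RNase H2 gene Rnaseh2c, whose enzyme cuts RNA in hybrids, was at 5.67, 5.63 and 6.25 CPM in wildtype and 8.29 and 9.26 CPM in GDel1 (0.59 ± 0.15 SE, adjusted p = 0.0694). Neither overlapped. The G4 helicase gene Dhx36 was at 0.14, adjusted p = 0.42. Of 19 genes for CTCF, cohesin and the ADNP complex none passed (median 0.01). Ctcf, which anchors chromatin loops, was at 188, 189 and 174 CPM in wildtype and 197 and 166 CPM in GDel1 (-0.02 ± 0.10 SE, adjusted p = 0.932), and Adnp at 196, 225 and 200 CPM in wildtype and 103 and 145 CPM in GDel1 (-0.74 ± 0.18 SE, adjusted p = 0.0707).

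Pluripotency and signalling lists had no call. The 20 naive pluripotency genes had a median of -0.05: Nanog was at 1038, 1054 and 1050 CPM in wildtype and 1023 and 918 CPM in GDel1 (-0.11 ± 0.09 SE, adjusted p = 0.484), and Tfcp2l1 at 1963, 1970 and 1858 CPM in wildtype and 1519 and 1778 CPM in GDel1 (-0.23 ± 0.11 SE, adjusted p = 0.261). Formative and primed genes had a median of -0.13 over 15. Wnt target genes, which GSK inhibition holds active, had a median of -0.41 over 11, of which 6 had both GDel1 libraries below all wildtype libraries, against 22.6% of all genes tested. Znrf3, a Wnt feedback inhibitor, was at 50.8, 50.7 and 46.8 CPM in wildtype and 38.6 and 35.9 CPM in GDel1 (-0.41 ± 0.10 SE, adjusted p = 0.0633). Genes that respond to ERK had a median of -0.16 over 14, SRF and YAP targets -0.10 over 10, p53 targets 0.12 over 16, and stress response genes 0.02 over 23. Genes of the 2-cell-like state, all near the detection limit, had a median of -0.64 over 8. No tested marker of endoderm, mesendoderm, neuroectoderm or trophoblast passed.

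**Figure D5:**
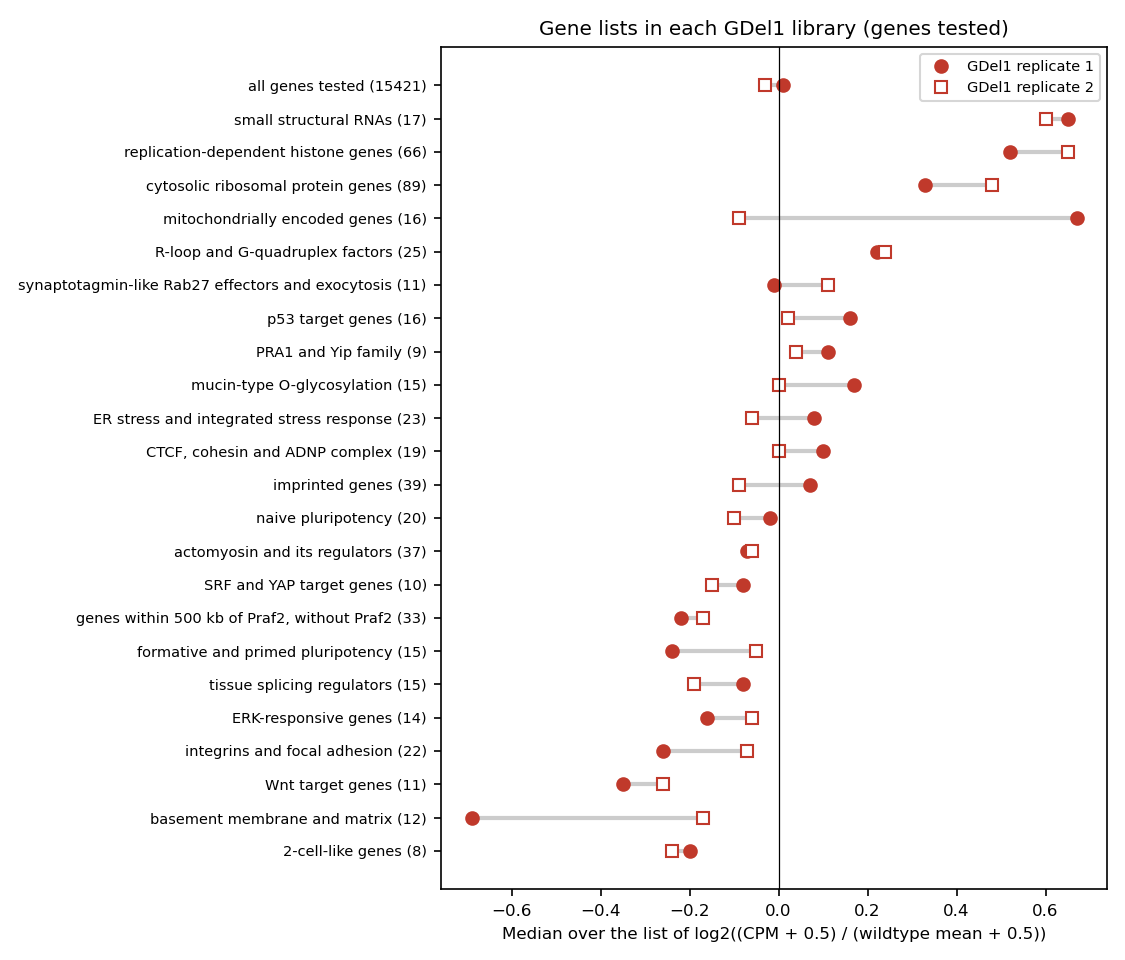
Median log2 ratio to the wildtype mean, with 0.5 CPM added, of each gene list with at least 5 genes tested, in each GDel1 replicate. The list of small structural RNAs, which also holds Malat1 and Neat1, and histone and ribosomal protein genes lie above 0 in both. Mitochondrially encoded genes (0.67 and -0.09) and matrix genes (-0.69 and -0.17) differ between replicates. The Xlr family (-2.24 and -2.11) is left out.

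By chromosome, the median of the genes tested lay between -0.05 and 0.08 on every autosome and the X chromosome. The X chromosome had 7 calls among 497 genes tested, or 1.41%, against 0.376% of all genes tested. Praf2, Xlr3a, Xlr3b, Xlr4a, Tspan7 and Klhl13 fell and Mageb16 rose. Praf2 is the gene named in the deletion label and the Xlr copies share reads, so these calls are not separate observations. Each called gene was also set beside the next called gene along its chromosome. Of these consecutive pairs, 8 lay within 1 Mb, including those of Myh9 with Rbfox2 and of Sytl3 with Gm2808.

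The G4 motif stood in the RefSeq promoter windows, 250 bases before to 50 after a start, of 6 of the 18 fallen genes that have one (33.3%), of 1 of the 10 risen genes (10%) and of 31.7% of the 10171 genes tested that have one. A CTCF core motif with up to 2 mismatches stood in 5 of 18 (27.8%), 0 of 10 and 18.2%. Praf2 was among the genes with neither. Counts this small carry no test.

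Beside GDel2, the levels in GDel1 were shared for some genes and opposite for others. Against the same wildtype libraries, 17 of the 33 genes that fell in GDel1 were called lower in GDel2, 4 higher and 12 not. Of the 25 that rose, 9 were called higher, 3 lower and 13 not. Of all genes tested, 33.1% were called in GDel2. Both comparisons share the wildtype libraries, so agreement between them is not independent. Between GDel2 and GDel1, 46 of the 58 differed, and 27.7% of all genes tested did; the 58 were chosen on the GDel1 libraries, so nothing is read from that count. Praf2 was at 13.1 and 14.1 CPM in GDel2, Myh9 at 97.7 and 84.9 CPM and Rbfox2 at 117 and 107 CPM, each between GDel1 and wildtype. Xlr3a was at 3.24 and 3.61 CPM in GDel2 and Xlr3b at 0.947 and 1.52 CPM, also between. Plagl1 was on the other side of wildtype, at 292 and 307 CPM, as were Slfn9 at 20 and 27.3 CPM, Sytl3 at 1.42 and 1.52 CPM and Fabp3 at 19.2 and 22.8 CPM.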

How the data were processed

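Ribosome-depleted total RNA of 5 libraries, 3 wildtype and 2 GDel1, was compared, with the 2 GDel2 libraries in the same fit. The deposited tables give, for each gene and library, an expected count, TPM and a mean transcript length in bases estimated by RSEM, per the file headers. The submitters' processing notes name STAR, RSEM and the mm10 build without versions; no source used here gives the annotation release or the strand setting of the counting, so overlapping and antisense genes cannot be told apart. Expected counts were rounded to whole numbers, kept where edgeR's filterByExpr passed (minimum count 10, total 15), scaled by TMM and tested with edgeR 4.0.16 (R 4.3.3; robust quasi-likelihood F test, 3 groups, Benjamini-Hochberg adjustment over 15421 genes, threshold 0.05). Every adjusted p is from this fit unless another is named. TPM values were tested as log2(TPM + 1) with limma 3.58.1, so those fold changes understate the change of low genes. DESeq2 1.42.0 was an alternative for counts. Intervals, Wilson for shares, cover counting error only.

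Full values were set by rule for Praf2, genes within 100 kb, up to 15 rises and 15 falls past the threshold with at least 2 CPM and no overlap, list members past the threshold or the 2 highest, and neighbours of the 8 largest changes. Other list members and neighbours were named after their values were seen, for their known roles. The gene lists and this comparison were chosen with earlier results of these data known. Names and promoter sequences come from RefSeq tables of GRCm38.p6, which placed 37807 of the 55487 genes. Some genes are not reported here.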

Additional observations from a re-analysis of the deposited data

Results flagged for a closer look

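The deletions GDel1 and GDel2 carry the same genotype label and were set against the same wildtype libraries. Of the 30 genes given with full values, 25 differed between them in edgeR (GDel2 against GDel1, adjusted p under 0.05), where 27.7% of all genes tested differed, and 24 of the 25 are given here. These genes were chosen as the largest changes on the GDel1 libraries that this difference also uses, so the count and the directions are a description. Among genes that fell in GDel1, all 13 given were higher in GDel2, with log2 fold changes of Xlr3a 4.09, Xlr3b 2.45, Myh9 2.29, Tspan7 1.95, Plagl1 6.31, Mmp2 2.28, Olfm1 1.24, Praf2 0.50, Slfn9 2.92, Slc1a1 1.17, Peg10 1.05, Parm1 0.67 and Rbfox2 0.43. Among genes that rose in GDel1, 9 were lower in GDel2, with log2 fold changes of Rtraf -0.40, Fabp3 -2.68, Mageb16 -0.71, Chchd1 -0.57, Rpph1 -0.61, Scarna6 -0.98, Rn7s1 -0.87, Galnt2 -0.82 and Sytl3 -2.54, and 2 were higher, with Ddc at 1.05 and Emp1 at 0.40. Falls outside these 30 genes differed in both directions: Rgma (-0.85) and Klhl13 (-0.61) were lower in GDel2 than in GDel1, Shisa7 (0.84) and Alg3 (0.67) higher. What sets the deletions apart was not tested.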

How the results depend on the processing

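The count of 58 genes moved with most settings. It was 12 with the 5 libraries alone, 14 by library size only, 33 in edgeR without robust estimation, 34 with a minimum count of 30, 993 in DESeq2, 2337 by limma on log2(TPM + 1) and 2357 with no filter on low counts; it stayed within 1.5 times of 58 with median-of-ratios factors (55) and without mitochondrially encoded genes (60). Leaving out 1 library gave 4 to 2034 calls; 4 genes (Praf2, Myh9, Xlr3b, Xlr3a) passed in each of these 7 fits. By limma on log2(TPM + 1), 38 of the 58 genes stayed called, 19 lost the call and 1 (Emp1) changed sign. The cause of these moves was not tested. Replicate numbers did not pair the samples (correlations of 0.104 and -0.006 between same-numbered wildtype and GDel1 libraries). With them as a replicate block 1 gene was called, and Praf2 was at -1.54 with an adjusted p of 0.141.

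Under limma on TPM, where all genes had a median of -0.30, Emp1 changed sign (-0.16), as did genes that had not passed: Rabac1 -0.44, Sgce -0.07, Txn2 -0.41, Grb10 -0.20, Rnaseh2c -0.17, Dhx36 -0.34, Myh14 -0.50, Gpkow -0.30, Gripap1 -0.24, Arl6ip5 -0.18, Ezr -0.29, Malat1 -0.61 and Dynlt1f -0.01. For GDel2 against GDel1 Rgma (0.00), Zfp59 (0.07) and Rprl3 (0.03) did. By library size Sgce (-0.07), Txn2 (-0.04) and Gpkow (-0.03) did, and with the replicate block Sgce (-0.02). Genes near 0 also changed sign with a library left out, where their lowest and highest values were -0.11 and 0.14 for Sgce, -0.03 and 0.11 for Txn2, -0.14 and 0.10 for Ctcf, -0.18 and 0.02 for Myh10, -0.65 and 0.48 for Myh14, -0.72 and 0.06 for Plp2, -0.10 and 0.56 for Gripap1, -0.43 and 0.02 for Nsdhl, -0.26 and 0.12 for Zfp275 and -0.21 and 0.13 for Wdr45. With 2 GDel1 libraries, small changes were not detectable, and a gene that did not pass is not shown to be level.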

Other observations

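Genes with predicted names made up 10 of the 25 rises, 6 of the 33 falls and 3056 of all 15421 genes tested. Gm49358 had 0 counts over the wildtype libraries and 75 over the GDel1 libraries, which is at least 38.6-fold higher against a floor of 3 counts per group (edgeR adjusted p = 0.0494). Gm29719 was at 1.1, 1.79 and 1.58 CPM in wildtype and 5.63 and 4.58 CPM in GDel1 (1.75 ± 0.24 SE, adjusted p = 0.0358). Both were higher in each GDel1 library than in any wildtype library. Gm49411 was at 8.98, 8.85 and 8.61 CPM in wildtype and 2.9 and 2.39 CPM in GDel1 (-1.75 ± 0.16 SE, adjusted p = 0.00668), and Gm49089 at 14.1, 14.4 and 13.2 CPM in wildtype and 5.39 and 5.05 CPM in GDel1 (-1.41 ± 0.15 SE, adjusted p = 0.0129), against 315 and 245 CPM in GDel2. The noncoding 2810429I04Rik was at 2.28, 2.47 and 2.78 CPM in wildtype and 0.563 and 0.468 CPM in GDel1 (-2.29 ± 0.29 SE, adjusted p = 0.0249). None of these 5 genes overlapped between groups. The 5 calls were lost without wildtype replicate 1 or 2 (adjusted p 0.0619 to 0.185). All but that of Gm49411 were lost without wildtype replicate 3 (0.06 to 0.144). Those of Gm49358, Gm29719 and 2810429I04Rik were lost without GDel2 replicate 1 (0.0589 to 0.0639), and that of Gm49358 without GDel2 replicate 2 (0.0565).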
